A study of Mus musculus with 12 samples.

Results

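The 10 genes described here encode the machinery of focal adhesions, the sites at which integrins in the cell membrane are tied to actin filaments. They were chosen by name, as the entries of the deposited tables whose symbol is Zyx, Lpp, Vasp, Enah, Tln1, Vcl, Pxn, Ilk, Parva or Ptk2, and all 10 were found among the 14096 genes listed for each mouse. The data are mRNA sequencing of glomeruli from 12 male mice without endothelial nitric oxide synthase (eNOS-/-, on C57BL/6J), 3 in each of 4 groups. Con_DMSO mice were nondiabetic and received vehicle (5% DMSO), and Con_ATG mice were nondiabetic and received arctigenin (ATG), a plant lignan, at 40 mg/kg per day. DM_DMSO and DM_ATG mice were made diabetic with streptozotocin (STZ, a toxin of the insulin-producing cells, 50 mg/kg daily for 5 days) when 8 weeks old, and then received vehicle or ATG in the same way. The nondiabetic mice were injected with citrate buffer instead of STZ, also when 8 weeks old. Gavage began 10 weeks after these injections in every group and lasted 8 weeks. The eNOS deletion is shared by controls and treated mice, so no group stands for a mouse with a working Nos3 gene.

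Focal adhesions hold the podocyte, the epithelial cell of the glomerular filter, on its basement membrane, and mesangial and endothelial cells of the glomerulus use the same machinery. Talin (Tln1) binds the tails of integrins, and vinculin (Vcl) binds talin and actin and strengthens the link under load. Integrin-linked kinase (Ilk) and alpha-parvin (Parva) form, with a PINCH protein, a second bridge from integrins to actin. Paxillin (Pxn) is a scaffold and focal adhesion kinase (Ptk2) the tyrosine kinase that signals from the site. Zyxin (Zyx) and its relative Lpp are LIM proteins that arrive at adhesions and stress fibres under tension and bring the actin elongation factors Vasp and Enah (Mena) with them.

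Each library gave 23.6 M to 29.8 M reads over the genes of the tables. Every member had at least 751.9 recovered reads in every mouse, and some of these values are fractions. Values are the deposited log2 values, in which reads were scaled by a single factor per library and not divided by gene length. The labels tie no 2 samples to a shared animal, and p-values measure only the spread between these mice. Nos3 still had between 846 and 2703 reads in each library. Reads were summed over the gene, and no library of a mouse with an intact gene was analysed here. The labels' number series differ between groups, so that a batch named by them cannot be told apart from the group. The labels also describe dissociation and sorting of single cells, which the study's methods for the sequencing do not, and all of the podocyte (12 of 12), endothelial (10 of 10) and mesangial (9 of 9) markers checked were listed. Con_ATG mice stood apart. The summed linear value of the podocyte markers was 277954 to 675955 there, with mouse 3 at the upper end, against 605349 to 663322 in Con_DMSO. That of the 20 tubule markers was 584232 to 891344 in Con_ATG, 428305 to 498727 in Con_DMSO, 97335 to 283072 in DM_DMSO and 202044 to 224360 in DM_ATG. In bulk tissue, fewer cells of a type and less RNA per cell cannot be told apart.

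**Figure D1:**
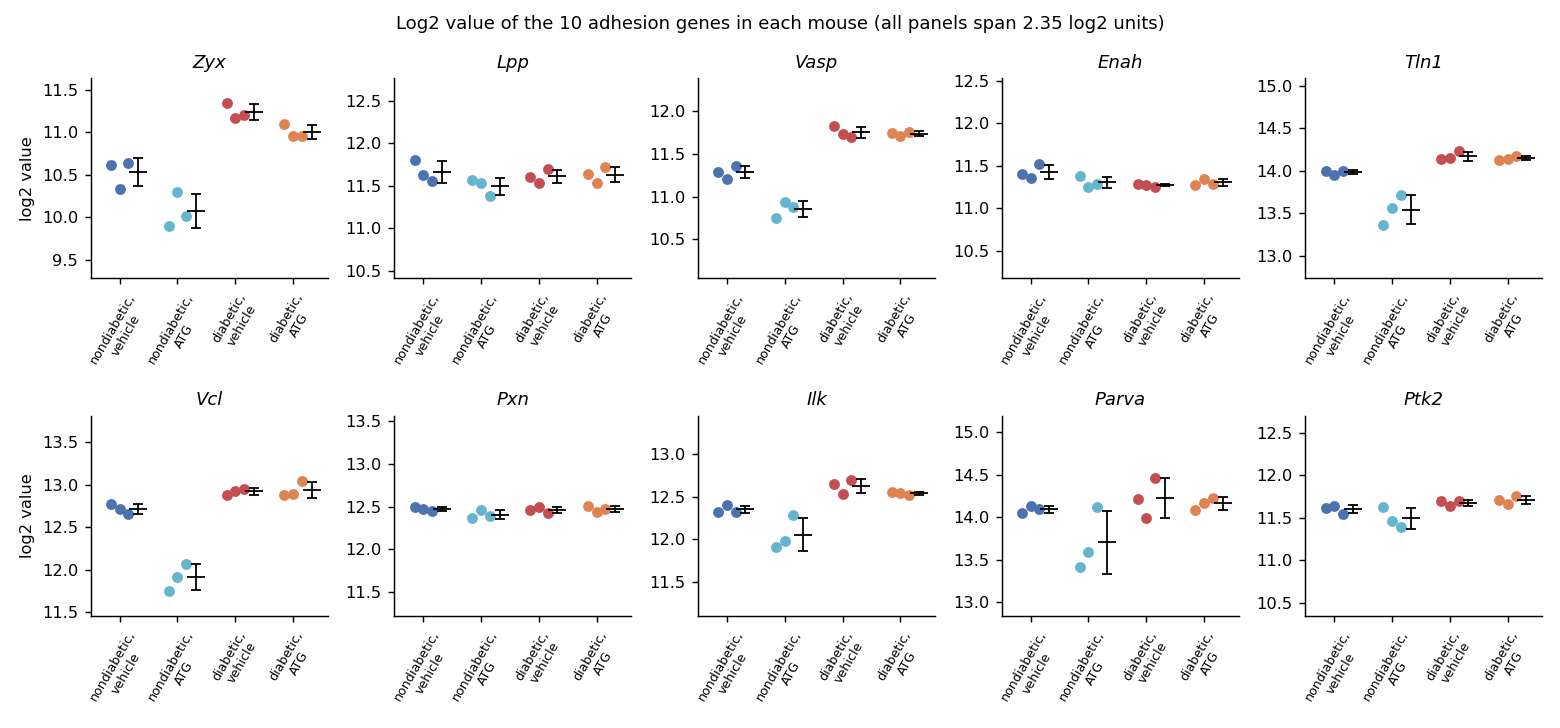
Log2 value (vertical axis) of each of the 10 genes in every mouse, by group (horizontal axis); each coloured point is 1 mouse, the black bar is the mean and the whiskers are the SD (n = 3). Zyx and Vasp were higher in both diabetic groups than in every nondiabetic mouse, Vcl and Tln1 were lowest in the nondiabetic mice given ATG, and Pxn, Enah and Lpp were nearly level.

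The members differed widely in abundance. Per kilobase of the transcript length that the authors list, Parva led in Con_DMSO with a linear value of 3920 ± 101 (SD, n = 3). Ilk followed with 2982 ± 95.7, then Tln1 with 1893 ± 37.4, Pxn with 1486 ± 24.1, Vcl with 1281 ± 52.4 and Vasp with 1113 ± 57.0 on the same scale. Ptk2 (703 ± 23.1) and Zyx (438 ± 49.6) were lower, and Enah (223 ± 13.6) and Lpp (210 ± 18.9) closed the order without differing beyond their spread. In DM_DMSO the per-kilobase value of Zyx was 713 ± 45.9 (SD, n = 3) and overlapped with that of Ptk2 (740 ± 16.6), while Enah and Lpp kept the last places at 200 ± 2.14 and 203 ± 11.1. Within DM_DMSO, Vasp (1537 ± 66.9), Vcl (1482 ± 38.4) and Pxn (1477 ± 35.5) could not be ordered, nor could Parva (4322 ± 705) and Ilk (3607 ± 210).

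The first comparison asked how the members differed between diabetic and nondiabetic mice on vehicle. Zyx and Vasp, a LIM protein and the actin elongation factor it recruits, were higher in the diabetic glomeruli, Zyx by 1.63-fold and Vasp by 1.38-fold. The other 8 members did not pass the test. Zyx, on chromosome 6 of GRCm38 from 42349511 to 42360213, had log2 values of 10.62, 10.34 and 10.64 in Con_DMSO and of 11.35, 11.17 and 11.21 in DM_DMSO. Every diabetic mouse lay above every nondiabetic one. The log2 fold change was 0.71 ± 0.11 (SE, 95% interval 0.46 to 0.95), with an adjusted p of 0.0044 in limma. Vasp, on chromosome 7 from 19256929 to 19271854, had log2 values of 11.29, 11.21 and 11.36 in Con_DMSO and of 11.82, 11.73 and 11.70 in DM_DMSO. These groups did not overlap either, and the log2 fold change was 0.47 ± 0.066 (SE) with an adjusted p of 0.0031 in limma. Both calls were kept with each of the 12 mice left out in turn.

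The relatives of these genes among the members, Lpp and Enah, were not called. Evl, a relative of Vasp outside the members, was higher (0.47, adjusted p = 0.018 in limma). Lpp, the other LIM protein, had a log2 fold change of -0.05 (95% interval -0.23 to 0.13), and Enah, the other elongation factor, was listed at 11.40, 11.35 and 11.52 in Con_DMSO and at 11.28, 11.27 and 11.25 in DM_DMSO. Enah was the only member whose diabetic mice all lay below the nondiabetic ones, with a log2 fold change of -0.15 ± 0.060 (SE, adjusted p = 0.095 in limma). Among the integrin linkers, Ilk had a log2 fold change of 0.27 ± 0.090 (SE, adjusted p = 0.056 in limma), Vcl of 0.21 ± 0.083 (adjusted p = 0.096) and Tln1 of 0.19 ± 0.089 (adjusted p = 0.15). The diabetic mice of these 3 genes lay above the nondiabetic ones, but none passed the threshold. Parva (0.13), Ptk2 (0.07) and Pxn (-0.0093) overlapped between the groups. In all, 2 of 10 members were called higher against 10.2% of all genes, 5 of 10 lay wholly higher in the diabetic mice against 23% of all genes, and the members' median log2 fold change was 0.16 against 0.0075 over all genes. Without Con_ATG mouse 3, which enters only the shared spread, 4 members were called in limma (Ilk, adjusted p = 0.0099, and Vcl, adjusted p = 0.048, in addition).

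Markers of other cell types moved with the same comparison. For tubule markers (20 genes), the average on the log2 scale was 13.22 ± 0.30 (SD, n = 3) in Con_DMSO and 11.82 ± 0.70 in DM_DMSO. With that mean as a covariate, the log2 fold change was 0.78 for Zyx (limma, adjusted p = 0.055) and 0.48 for Vasp (adjusted p = 0.052), so that neither was called any more, and 324 of 14096 genes were called in place of 2659. The tubule mean was 12.88 to 13.45 in Con_DMSO mice and 11.05 to 12.40 in DM_DMSO mice, without overlap. The covariate therefore cannot be cleanly separated from diabetes, and the lost calls do not measure the part of tubule cells. The endothelial marker mean was 13.73 ± 0.069 (SD, n = 3) in Con_DMSO and 14.12 ± 0.094 in DM_DMSO, without overlap, and summed linear values were 151969 to 165239 and 202855 to 220427. The mesangial marker mean was lower in every DM_DMSO mouse (11.59 to 11.88) than in any Con_DMSO mouse (11.90 to 12.12). The smooth muscle marker mean was 11.32 ± 0.45 in Con_DMSO and 11.04 ± 0.12 in DM_DMSO and the podocyte marker mean 14.56 ± 0.067 and 14.70 ± 0.36 (SD, n = 3), both with overlap. The mean of the 10 listed leukocyte markers was 9.06 ± 0.31 (SD, n = 3) in Con_DMSO and 9.74 ± 0.22 in DM_DMSO, with summed linear values of 8711 to 13271 and 12738 to 18332. Cd3e and Cd79a are not listed. Of the 6 platelet markers, only Itga2b is listed, at 7.80 ± 0.067 and 8.41 ± 0.10 (SD, n = 3), and the platelet genes Pf4 and Ppbp are not. The mean of the 5 listed erythrocyte markers (of 6) was 6.08 ± 0.22 (SD, n = 3) in Con_DMSO and 7.23 ± 0.78 in DM_DMSO, without overlap, while their summed linear values were 1355 to 1599 and 1110 to 1376. Vasp and Zyx are also made in endothelial and blood cells and platelets, and the part of these cells in the result was not tested.

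**Figure D2:**
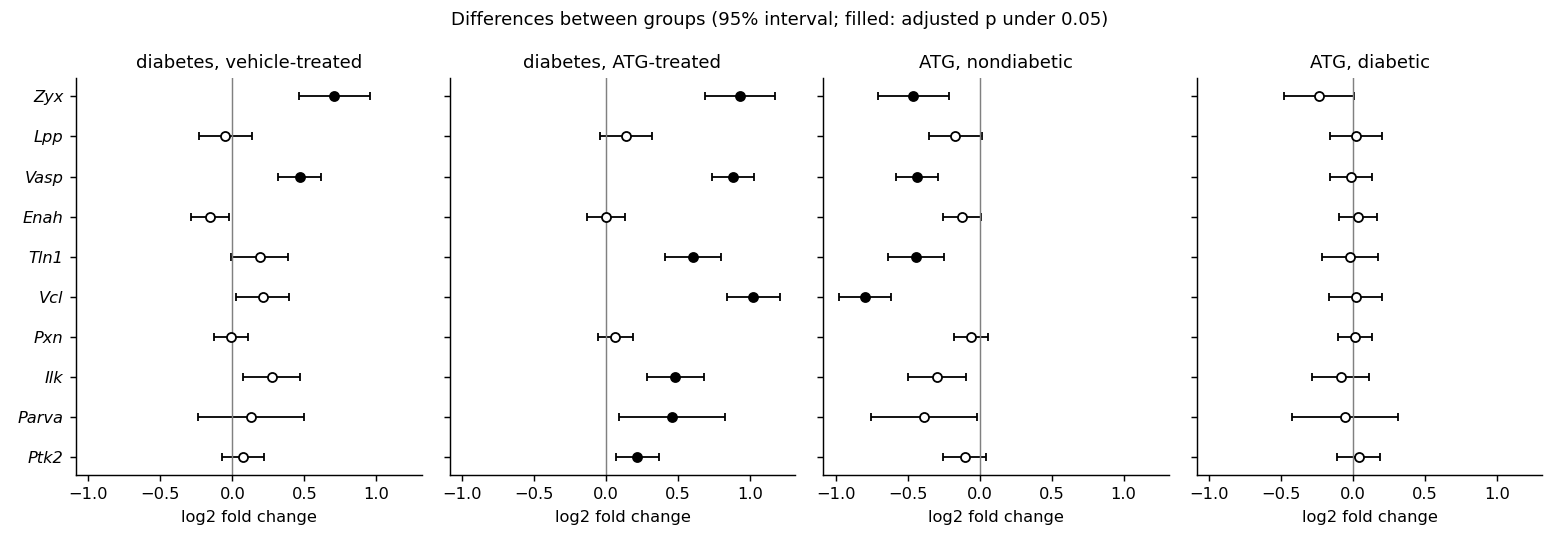
Log2 fold change (horizontal axis) of each gene (vertical axis) in 4 comparisons: diabetic minus nondiabetic mice on vehicle and on ATG, and ATG minus vehicle in nondiabetic and in diabetic mice. Bars are 95% intervals and filled points had an adjusted p under 0.05; 2, 7, 4 and 0 points are filled, in that order.

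For ATG in diabetic mice, the comparison closest to the study's question, no member passed the test. Zyx had the largest difference of the 10 genes. Its log2 values were 11.35, 11.17 and 11.21 in DM_DMSO and 11.10, 10.96 and 10.96 in DM_ATG, so that the groups did not overlap, as for 6.32% of all genes in this direction. The log2 fold change was -0.24 ± 0.11 (SE, 95% interval -0.48 to 0.0063), with an unadjusted p of 0.055 and an adjusted p of 0.9997 in limma. Each DM_ATG mouse was still above the highest Con_DMSO mouse (10.64). The paper itself reports a change of Zyx with ATG by real-time PCR of glomerular mRNA. For FAK (Ptk2) and ILK it reports no effect of ATG on the protein in vitro. The leukocyte marker mean was 9.74 ± 0.22 (SD, n = 3) in DM_DMSO and 9.22 ± 0.36 in DM_ATG, with an erythrocyte marker difference of -0.73 and a tubule marker difference of 0.33 between the same groups, and their part in the Zyx values was not tested. The other 9 members overlapped between the groups and had log2 fold changes from -0.09 (Ilk) to 0.04 (Ptk2). For Vasp the value was -0.02 (95% interval -0.16 to 0.13) and for Vcl 0.02 (95% interval -0.16 to 0.20). None of the members was called in limma, as for 0% of all genes, and none had an unadjusted p under 0.05, against 636 of 14096 genes; limma with voom weights on recovered reads called 0 genes as well. These intervals leave room for changes of the size of the Zyx difference in Ilk and Parva.

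In nondiabetic mice, ATG was accompanied by lower levels of vinculin, talin, Vasp and zyxin. Vcl, the member with the largest change, fell to 0.576 of its level on vehicle. Vcl lies on chromosome 14 from 20929383 to 21033676 and had log2 values of 12.77, 12.71 and 12.65 in Con_DMSO and of 11.76, 11.92 and 12.07 in Con_ATG. No mouse of one group came within the range of the other. The log2 fold change was -0.79 ± 0.083 (SE, 95% interval -0.98 to -0.61, adjusted p = 0.0023 in limma). Tln1, its binding partner, had log2 values of 14.00, 13.95 and 14.00 on vehicle and 13.36, 13.56 and 13.71 on ATG, a log2 fold change of -0.44 ± 0.089 (SE, adjusted p = 0.023 in limma). Vasp was at 10.74, 10.93 and 10.88 in Con_ATG, with a log2 fold change of -0.43 ± 0.066 (SE, adjusted p = 0.0085 in limma), and Zyx at 9.90, 10.30 and 10.02, with one of -0.46 ± 0.11 (SE, adjusted p = 0.041 in limma). The 4 genes did not overlap between the groups.

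Ilk was the fifth member without overlap, at 12.33, 12.40 and 12.32 on vehicle and 11.91, 11.97 and 12.28 on ATG (log2 fold change -0.30, adjusted p = 0.074 in limma). Parva was at 14.05, 14.13 and 14.09 on vehicle and at 13.41, 13.59 and 14.12 on ATG, where mouse 3 lay within the vehicle range (log2 fold change -0.39, adjusted p = 0.15 in limma). Lpp (-0.17), Enah (-0.12), Ptk2 (-0.10) and Pxn (-0.06) overlapped between the groups. In all, 4 of 10 members were called lower against 4.51% of all genes, 5 of 10 lay wholly lower on ATG against 20% of all genes, and the members' median was -0.34 against -0.039 over all genes.

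The Vcl call remained with each mouse left out in turn (adjusted p from 0.001 to 0.026). That of Vasp was lost without Con_DMSO mouse 3 (adjusted p = 0.051). Tln1 kept its call in 7 of the 12 such fits and lost it without any 1 of the Con_DMSO mice or Con_ATG mouse 1 or 2 (adjusted p up to 0.11). Zyx kept its call in 5 and lost it without Con_DMSO mouse 1 or 3, Con_ATG mouse 1, DM_DMSO mouse 1 or any 1 of the DM_ATG mice (adjusted p up to 0.17). The Zyx call was also lost with median-ratio scaling (-0.41, adjusted p = 0.065 in limma) and without the variance trend (adjusted p = 0.054). Without the 2 unnumbered mice, Vcl (-0.69, adjusted p = 0.045) was the only one of the 4 called. With only these groups in the fit, none of the 4 was called, and the adjusted p in limma was 0.052 for Vcl, 0.087 for Vasp, 0.11 for Tln1 and 0.12 for Zyx. Con_ATG glomeruli also had lower markers of the glomerular cell types. Mean log2 values of the podocyte markers were 13.40, 13.85 and 14.60 in the 3 Con_ATG mice against 14.48, 14.60 and 14.59 in Con_DMSO, and those of the endothelial markers 12.70, 13.08 and 13.49 against 13.72, 13.67 and 13.80. The mesangial markers were lower too, at 11.13 ± 0.20 (SD, n = 3) against 11.98 ± 0.12, and the tubule markers higher, at 13.91 ± 0.33 against 13.22 ± 0.30. The 7 smooth muscle markers had the largest difference of these lists, -0.88, with mice from 10.19 to 10.67 in Con_ATG and from 10.81 to 11.62 in Con_DMSO. The leukocyte marker mean was also lower without overlap, from 8.39 to 8.71 in Con_ATG and from 8.78 to 9.39 in Con_DMSO. With the tubule mean as a covariate, the log2 fold change of Vcl was -0.75 (limma, adjusted p = 0.014), and Vasp (-0.44, adjusted p = 0.053), Tln1 (-0.38, adjusted p = 0.14) and Zyx (-0.50, adjusted p = 0.14) were no longer called. In mouse 3 of Con_ATG, the podocyte marker mean was not below the Con_DMSO mice, while the endothelial (13.49), mesangial (11.27) and smooth muscle (10.46) means and Vcl (12.07) were below every Con_DMSO mouse. The part of these cell types in the results was not tested.

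**Figure D3:**
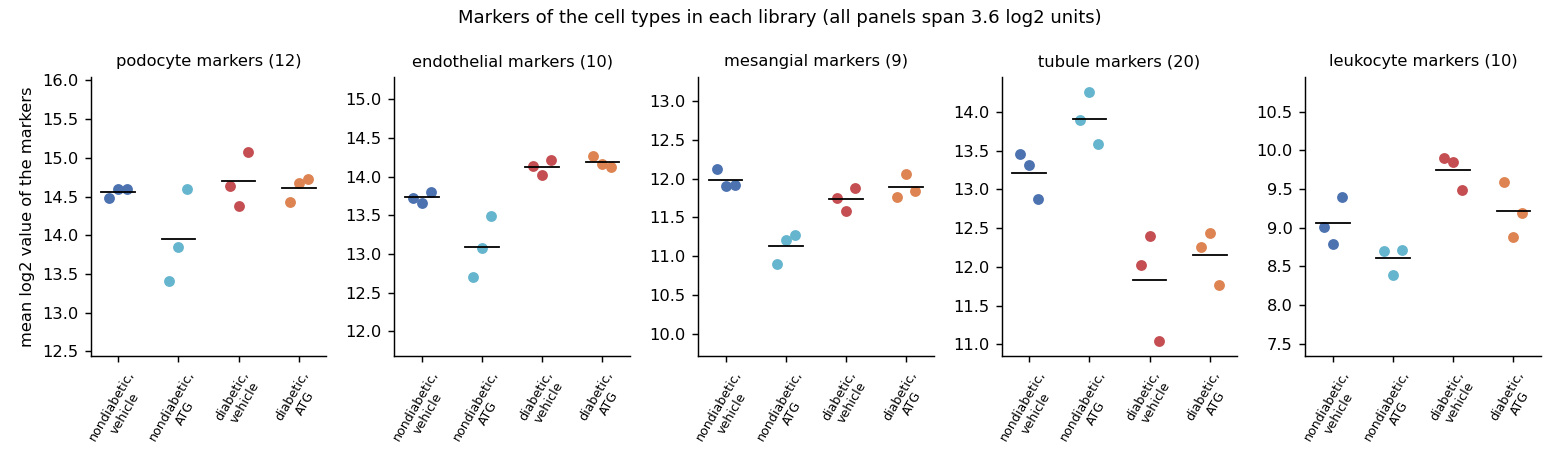
Mean log2 value of the listed markers of 5 cell types (vertical axis; number of markers in brackets) in each mouse, by group; points are mice and bars are group means (n = 3). Podocyte, endothelial and mesangial markers were lowest in nondiabetic mice on ATG, except for podocyte markers in mouse 3, and tubule markers were lower in both diabetic groups than in every nondiabetic mouse.

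Between diabetic and nondiabetic mice that both received ATG, 7 of 10 members were higher, against 25.9% of all genes, and 6 of 10 lay wholly higher, against 30.5%. This comparison shares its mice with both ATG comparisons and is not independent of them. In the same comparison the endothelial (1.097), mesangial (0.76), smooth muscle (0.70), podocyte (0.66) and leukocyte (0.62) marker means were higher and the tubule mean lower (-1.76) on the log2 scale, and their part was not tested. The tubule mean was 13.59 to 14.26 in Con_ATG mice and 11.77 to 12.43 in DM_ATG mice, so that as a covariate it cannot be cleanly separated from diabetes. Vcl was 2.03-fold higher, with a log2 fold change of 1.02 ± 0.083 (SE, adjusted p = 5.4e-05 in limma). Zyx had a log2 fold change of 0.93 ± 0.11 (SE, adjusted p = 0.00026) and Vasp of 0.89 ± 0.066 (SE, adjusted p = 5.1e-05), close to 1.9-fold for Zyx and 1.85-fold for Vasp. Tln1 (0.61), Ilk (0.48), Parva (0.46) and Ptk2 (0.22) were also called, at limma adjusted p of 0.00061, 0.002, 0.044 and 0.022. Pxn (0.07), Lpp (0.14) and Enah (-0.00075) were not. The calls of Parva and Ptk2 were kept in 3 and in 8 of the 12 fits without a mouse. They were lost with median-ratio scaling (limma, adjusted p = 0.055 and 0.060) and with only the groups compared (0.084 and 0.076), which left 5 members called. With the tubule mean as a covariate only Vasp (0.90, adjusted p = 0.027) and Vcl (0.91, adjusted p = 0.036) were called. Zyx had a log2 fold change of 1.02 with the covariate (limma, adjusted p = 0.058), which is no smaller than without it.

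The ATG effect itself was then compared between diabetic and nondiabetic mice. Vcl was the only member for which this difference passed the test, at 0.81 ± 0.12 on the log2 scale (SE, 95% interval 0.55 to 1.07, adjusted p = 0.027 in limma), against 0.546% of all genes (77 of 14096). Vcl was lower with ATG in nondiabetic mice, while the values of diabetic mice were 12.88, 12.93 and 12.95 on vehicle and 12.88, 12.89 and 13.04 on ATG. Vasp (0.42; adjusted p = 0.078) and Tln1 (0.42; adjusted p = 0.20) had smaller differences of the same sign in limma, and Zyx, whose mice on ATG lay below those on vehicle in both backgrounds, had a difference of 0.22 (95% interval -0.13 to 0.57). The same difference of ATG effects in marker means was 1.00 for mesangial, 0.98 for smooth muscle, 0.70 for endothelial, 0.52 for podocyte and -0.37 for tubule markers on the log2 scale. Apart from the tubule covariate, their part was not tested. The Vcl call was kept in 4 of the 12 fits without a mouse, with adjusted p up to 0.12 in the others, and was lost without the 2 unnumbered mice (0.70, adjusted p = 0.13 in limma).

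**Figure D4:**
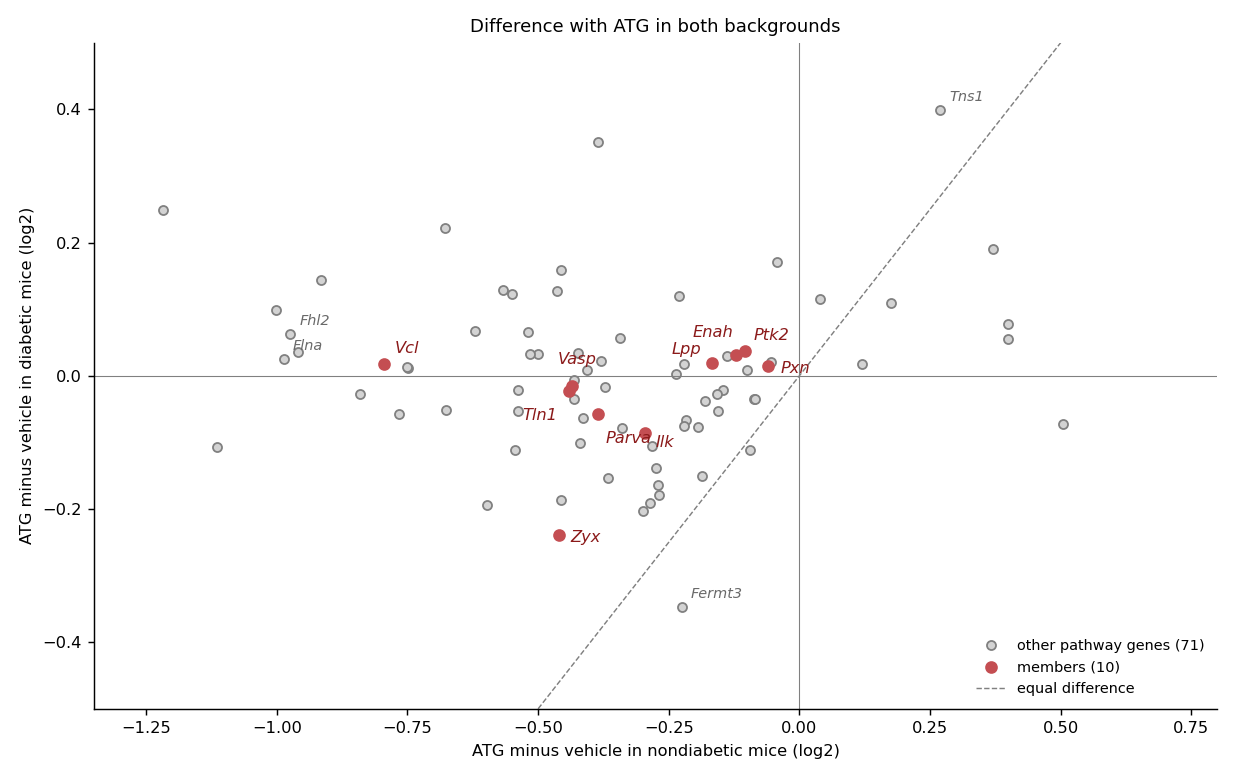
Log2 difference between ATG and vehicle in nondiabetic mice (horizontal axis) against that in diabetic mice (vertical axis, drawn on a wider scale) for the 10 members (red) and 71 other adhesion and actin genes (grey); each point is 1 gene and the dashed line marks equal differences. All 10 members lie left of 0 on the horizontal axis and between -0.24 and 0.04 on the vertical one; Vcl is the member farthest to the left.

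Other genes of the pathway were read from 4 lists with 71 listed genes. In vehicle-treated mice, diabetes was accompanied by higher levels of 12 and lower levels of 3 of the 71. These 15 calls are 21.1% of the lists, near the 18.9% of all genes called in either direction. The list of actin and serum response factor (SRF) genes had 5 of 15 higher and none lower, against 10.2% of all genes called higher, with a median of 0.44. They were calponin 2 (Cnn2, 0.92, adjusted p = 0.0095 in limma), the transcription factor Srf itself (0.70; adjusted p = 0.01), tropomyosin 4 (Tpm4, 0.69; adjusted p = 0.023), and the cytoplasmic actins Actb (0.62; adjusted p = 0.028) and Actg1 (0.46; adjusted p = 0.0295). Of the contractile genes on that list, Acta2 (-0.32), Cnn1 (-0.28) and Tagln (-0.20), which the smooth muscle markers hold too, had values below 0 and Tpm1 (0.44), Myl9 (0.22) and Tpm2 (0.014) above 0, and none was called. Of 20 linkers, the kindlin of blood cells Fermt3 (0.94), the third Ena/VASP protein Evl (0.47) and Rsu1, a partner of the Ilk complex (0.34), were higher, and Tln2 (-0.85) and the tensin Tns1 (-0.78) were lower. Among 15 LIM proteins only migfilin (Fblim1, 0.72, adjusted p = 0.014 in limma) was called, and among 21 kinases and adaptors Arhgef7 (0.37), Git1 (0.31) and Bcar1 (0.25) were higher and Arhgap35 (-0.28) lower. With the tubule mean as a covariate 1 of the 71 was called. Without 1 mouse the count ranged from 4 (DM_DMSO mouse 1) to 23 (Con_ATG mouse 1), and it was 9 without Con_DMSO mouse 1 or 3 and 6 without Con_DMSO mouse 2.

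ATG in nondiabetic mice was accompanied by lower values of 16 and higher values of none of the 71 in limma, against 4.51% of all genes called lower, with a median of -0.37. In the same comparison the podocyte (-0.61), endothelial (-0.64), mesangial (-0.85) and smooth muscle (-0.88) marker means were lower on the log2 scale, and their part was not tested. The lower genes included filamin A (Flna, -0.99; adjusted p = 0.0052), the LIM protein Fhl2 (-0.97; adjusted p = 0.0083), and the adaptors and exchange factors Asap1 (-0.46; adjusted p = 0.014), Arhgef6 (-0.42; adjusted p = 0.014) and Git2 (-0.42; adjusted p = 0.016). By list, 5 of 15 LIM proteins, 3 of 20 linkers, 3 of 21 kinases and adaptors and 5 of 15 actin and SRF genes were lower. In diabetic mice none of the 71 was called with ATG, and 2 had an unadjusted p under 0.05 in limma. Between ATG-treated diabetic and nondiabetic mice, 53 were higher and 4 lower, against 25.9% of all genes called higher, and the higher ones included all 15 actin and SRF genes (median 1.01). The marker differences given above for the members hold for this comparison as well. Among them were Fblim1 (1.49, adjusted p = 0.00016 in limma), Cnn2 (1.63), Flna (1.12), Tgfb1i1 (1.16) and Fhl2 (1.12). The difference between both ATG effects passed the test for Flna alone, at 1.01 (limma, adjusted p = 0.045), and was kept in 3 of the 12 fits without a mouse.

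The members did not move as a block within groups. After each group's mean was taken away, the 45 pairs of members had a median Pearson's r of -0.032 over the 12 mice, which share library and depth. Ilk with Parva (0.94), Tln1 with Vcl (0.87) and Zyx with Vasp (0.86) were among the closest pairs. The deviations of Parva had an r of 0.99 with those of the podocyte marker mean, against 0.91 for Tln1, 0.90 for Ilk and 0.77 for Vcl. For Vasp that r was 0.25 and for Zyx 0.007. With the smooth muscle marker mean (7 genes), in contrast, the r of the deviations was 0.83 for Zyx and 0.71 for Vasp, against 0.41 for Tln1, 0.15 for Parva, 0.11 for Vcl and 0.0098 for Ilk. With the endothelial marker mean it was 0.33 for Zyx, 0.52 for Vasp and 0.93 for Tln1. Set against the mean of the 9 other members in the same library, the log2 value of Zyx was -1.86 ± 0.16 (SD, n = 3) in Con_DMSO, -2.01 ± 0.20 in Con_ATG, -1.28 ± 0.091 in DM_DMSO and -1.51 ± 0.097 in DM_ATG. The diabetic mice were the higher ones on this scale too, and none overlapped with a nondiabetic mouse.

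Srf and genes known as its targets stood among the called genes, and the promoters of the members were read for the SRF binding motif (CArG box), for the TEAD motif GGAATG and for the GC box GGGCGG, on both strands of the 250 bases before each start. RefSeq promoters of GRCm38.p6 held 7 of the 10 members (not Pxn, Parva and Ptk2). Each start is that of a promoter entry and can lie inside the span of the gene. For Zyx (chr6:42349578-42349827) and Enah (chr1:182019981-182020230, minus strand) all bases searched lie inside that span. The bases before the outermost start of these genes were not searched. In the bases searched, Vcl was the only one with a CArG box, which 1.47% of 32851 promoters and 1.21% of the 14188 promoters of listed genes hold. It begins 227 bases before the start of the promoter entry. A TEAD motif, held by 12.6% of all promoters and by 1 of the Lpp promoters, begins 143 bases before the same start, so that the matches do not overlap. The last 15 of the 250 bases searched for Vcl lie inside its gene model. GC boxes, held by 32.7% of all promoters and 55.1% of those of listed genes, occur in Zyx, Vcl, Enah and Ilk. The Vcl stretch outside its gene model (chr14:20929148-20929382, plus strand) and, as a member that also fell with ATG but holds neither of the first motifs, that of Vasp (chr7:19271855-19272104, minus strand) read as follows 5′ to 3′, with the CArG box and the TEAD motif in capitals.
Vcl: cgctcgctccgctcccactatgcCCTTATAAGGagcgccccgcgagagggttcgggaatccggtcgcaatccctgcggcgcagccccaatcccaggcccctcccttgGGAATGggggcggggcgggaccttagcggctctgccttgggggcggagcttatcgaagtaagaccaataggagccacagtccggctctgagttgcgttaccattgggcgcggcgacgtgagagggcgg
Vasp: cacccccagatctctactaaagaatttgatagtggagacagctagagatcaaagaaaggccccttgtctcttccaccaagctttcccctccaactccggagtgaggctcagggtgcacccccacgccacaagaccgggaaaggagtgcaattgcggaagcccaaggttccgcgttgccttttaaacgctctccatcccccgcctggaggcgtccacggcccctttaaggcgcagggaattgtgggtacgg

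Of 56 other pathway genes with a promoter in the same table, 6 held a CArG box: Actg1, Cnn2, Fermt2, Fhl2, Myl9 and Srf. The actin and SRF list was drawn up from known targets, so its share is no independent count. The 30 bases around the box are shown for these 6 genes to set beside Vcl, with 1 box each, in capitals. Positions are chr10:79988534-79988563 (Cnn2, plus strand), chr11:120348566-120348595 (Actg1, minus strand), chr17:46556225-46556254 (Srf, minus strand), chr2:156775293-156775322 (Myl9, plus strand), chr1:43163973-43164002 (Fhl2, minus strand) and chr14:45530250-45530279 (Fermt2, minus strand). Srf and Fhl2 hold another box each, not shown.
Cnn2: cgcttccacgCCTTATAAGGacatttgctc
Actg1: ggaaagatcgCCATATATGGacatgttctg
Srf: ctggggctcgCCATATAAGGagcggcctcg
Myl9: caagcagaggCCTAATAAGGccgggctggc
Fhl2: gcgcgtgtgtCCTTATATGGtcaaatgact
Fermt2: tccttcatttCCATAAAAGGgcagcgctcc
The box of Cnn2 has the same letters as that of Vcl. Of these 6 genes, Cnn2, Actg1 and Srf were called higher in diabetes on vehicle, against 10.2% of all genes. Myl9 (0.22, adjusted p = 0.39 in limma) and Fhl2 (0.08, adjusted p = 0.74) were not. Cnn2 (-0.77, adjusted p = 0.039 in limma), Myl9 (-0.92, adjusted p = 0.017) and Fhl2 were called lower with ATG in nondiabetic mice, against 4.51% of all genes. Srf (-0.27, adjusted p = 0.21 in limma) and Actg1 (-0.10, adjusted p = 0.59) were not. Vcl was called in the second comparison only. Fermt2, a kindlin, was called in neither comparison (0.19, adjusted p = 0.26, and -0.38, adjusted p = 0.073, in limma). A motif match is a description of the letters and not of binding.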

How the data were processed

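Total RNA of glomeruli was sequenced after poly-A selection in 12 mice, grouped by the condition in the labels. The authors deposited log2 values per gene and mouse; per the labels, limma and the build mm10 were used, and the aligner, counter and scaling are not given in the sources used here. On the linear scale, 83.7% to 84.4% of the values under 2000 were whole multiples of 1 step per library (within 0.02 reads), which gave the reads. The rest, such as the lowest Zyx value (751.9), are fractions of reads on this scale. All 14096 listed genes reached 100 on the linear scale in some library, so low genes had been left out before deposit.

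The 12 mice entered 1 limma 3.58.1 fit (R 4.3.3) of 4 groups with a mean-variance trend, and p-values were adjusted across the 14096 genes after Benjamini and Hochberg (threshold 0.05). The fit was tested on simulated data. Plots used matplotlib 3.10.9 (Python 3.11.15). The members, the gene lists and the tests were chosen with earlier results of these data known. All 10 members are named, and of the pathway lists the called genes with the lowest p, up to 20 for diabetes on vehicle and 5 for each other comparison. The contractile genes and genes with a CArG box were named after their values or promoters had been seen. Genes of the lists not among the listed genes were Lpxn, Parvg and Efs. Positions are from RefSeq, GRCm38.p6. Replicates were numbered in the order of the labels' entries. Replicate mice were not duplicates (Pearson's r of log2 values 0.972 to 0.994).

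Alternatives were a median-ratio scaling, a minimum of 100 in every mouse, a pseudocount of 10, only the groups compared, no trend, the number in the titles as a replicate block, each mouse and the 2 unnumbered mice left out, the tubule mean as a covariate, a threshold of 0.1 and limma with voom weights. Some single-gene values of the pathway lists are not reported here.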

Additional observations from a re-analysis of the deposited data

Results flagged for a closer look

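Vcl was flagged because the ATG effect differed between diabetic and nondiabetic mice by a direct test of the difference, 0.81 on the log2 scale (limma, adjusted p = 0.027). Its direction was the same in all 12 fits without a mouse (0.73 to 0.89). The adjusted p was above 0.05 without Con_DMSO mouse 1 (0.12) or 3 (0.096), Con_ATG mouse 2 (0.066), DM_DMSO mouse 1 (0.099) or 2 (0.064), and DM_ATG mouse 1 (0.056), 2 (0.098) or 3 (0.092). With the tubule mean as a covariate the difference was 0.79 with an adjusted p of 0.039 in limma. The call was lost with the replicate block (adjusted p = 0.059) and without the unnumbered mice (0.70, adjusted p = 0.13).

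Flna, which encodes the actin crosslinker filamin A, was flagged by the same test, at 1.01 (limma, adjusted p = 0.045). Its log2 values ranged from 13.72 to 14.11 in Con_DMSO, 12.72 to 13.14 in Con_ATG, 14.00 to 14.12 in DM_DMSO and 14.03 to 14.15 in DM_ATG. Without 1 mouse its difference ranged from 0.89 to 1.13, and it was called in 3 of these 12 fits. The call was also lost with the tubule mean as a covariate (0.98, adjusted p = 0.067), with the replicate block (adjusted p = 0.086), without the variance trend (adjusted p = 0.059) and without the unnumbered mice (0.84, adjusted p = 0.16). The mesangial and smooth muscle marker means differed in the same way, by 1.00 and 0.98, and their part in both results was not tested.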

How the results depend on the processing

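No member was called for ATG in diabetic mice under any alternative. With the tubule mean as a covariate, the members called were 0 for diabetes on vehicle, 1 for ATG in nondiabetic mice and 2 for diabetes on ATG, and 1 pathway gene was called for diabetes on vehicle. With only the groups compared in the fit, 0 members were called for ATG in nondiabetic mice, and without the 2 unnumbered mice 1 was, with 0 for the difference of the ATG effects. At a threshold of 0.1, 5 members were called for diabetes on vehicle and 2 for the difference of the ATG effects, and 24 pathway genes for diabetes on vehicle. Without 1 mouse, the members called ranged from 2 to 4 for diabetes on vehicle, from 1 to 6 for ATG in nondiabetic mice, from 5 to 7 for diabetes on ATG and from 0 to 3 for the difference of the ATG effects, and pathway genes for diabetes on vehicle from 4 to 23. The low of 1 for ATG in nondiabetic mice came without Con_DMSO mouse 3, and the highs of 6, 4 and 3 without Con_ATG mouse 3. With only the groups compared, Ilk was called too for diabetes on vehicle (adjusted p = 0.04 in limma). Without the unnumbered mice, Vasp (adjusted p = 0.097), Tln1 (0.15) and Zyx (0.25) lost their calls for ATG in nondiabetic mice and Parva (0.20) for diabetes on ATG. The causes were not tested.

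The number in the titles was not taken to pair mice, since same-numbered diabetic mice deviated together with r of 0.31, 0.054 and 0.34. With it as a replicate block, 0 members were called for the difference of the ATG effects and 6 pathway genes for diabetes on vehicle; In limma, Zyx (adjusted p = 0.026) and Vasp (0.022) kept their calls for diabetes on vehicle, while Zyx lost that for ATG in nondiabetic mice (0.057), Parva that for diabetes on ATG (0.30, adjusted p = 0.21) and Vcl that for the difference of the ATG effects (0.059).

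Some fold changes changed sign, and of these only Parva for diabetes on ATG had been called (-0.12 with the tubule covariate). The covariate also gave -0.33 for Parva and 0.0583 for Pxn in diabetes on vehicle, and 0.05 for Parva, -0.0011 for Pxn and 0.0035 for Tln1 with ATG in diabetic mice. The block gave -0.0322 for Parva in diabetes on vehicle and 0.0199 for Enah in diabetes on ATG, where voom weights gave 0.017. Median-ratio scaling gave 0.0044 for Vasp with ATG in diabetic mice. Without the unnumbered mice, Lpp (0.022) and Pxn (0.0022) turned in diabetes on vehicle and Enah (0.035) in diabetes on ATG. Without 1 mouse, values ranged as follows. For diabetes on vehicle they were -0.10 to 0.022 (Lpp) and -0.0265 to 0.0081 (Pxn). For diabetes on ATG they were -0.0298 to 0.0352 (Enah). For ATG in diabetic mice they were -0.0225 to 0.0661 (Lpp), -0.0403 to 0.0196 (Vasp), -0.0405 to 0.0066 (Tln1), -0.0333 to 0.0472 (Vcl), -0.003 to 0.0333 (Pxn) and -0.17 to 0.0621 (Parva).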

Other observations

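Among all listed genes, those whose deviations from the group means followed Zyx most closely over the 12 mice were the complement protease C1s1 (Pearson's r = 0.96), Ccdc88c (0.92), the angiotensin converting enzyme Ace (0.91), Ch25h (0.90), which makes 25-hydroxycholesterol, and the tropomyosin Tpm2 (0.89), and Vasp ranked 13 (0.86). With the group differences left in, the closest were Lmna, which encodes the nuclear lamin A (0.985), Scarf1 (0.984), Flot1 (0.981), Tgfb1 (0.981) and Insl3 (0.981), with Vasp at rank 11 (0.97). These are the highest of 14096 genes, they share libraries, and no test was made.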
